A study of Mus musculus with 10 samples.

Results

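Interferon-stimulated genes were followed in cultured adipose tissue stem and precursor cells (ASPCs) after a 6 hr stimulation with the AHR ligand FICZ. A list of 44 gene symbols defined the set, and all 44 were found among the 25229 rows of the gene count table. The cells were CD45-CD31-Pdgfra+ cells of WT mice, sorted from the stromovascular fraction of perigonadal white adipose tissue (gWAT), and they were grown to confluence as a primary culture before treatment. 5 libraries were made from cells given the vehicle DMSO for 6 hr and 5 from cells given 100 nM FICZ for 6 hr, and both groups carry the numbers 1 to 5. The labels give neither the age nor the strain of the mice, nor whether each library came from a separate animal or culture, so the p-values measure only the spread between these libraries, which may be partly technical. The model is limited to cells sorted away from adipocytes, immune and endothelial cells and grown as a confluent layer, at a single dose and a single time.

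Interferons are secreted proteins that bind receptors at the cell surface. Type I interferons act through IFNAR1 and IFNAR2, which activate the kinases JAK1 and TYK2. These phosphorylate STAT2, which joins IRF9 in a complex that binds the interferon-stimulated response element (ISRE) in the promoters of their target genes. Interferon gamma acts through IFNGR1 and IFNGR2, and its targets often carry the gamma-activated site (GAS), and IRF1 is one of its early targets. Most of the induced proteins sense viral nucleic acid, block viral replication, act on intracellular vacuoles or feed back on the pathway itself. Stromal cells express many of them at a low basal level without infection. FICZ is a ligand of the aryl hydrocarbon receptor (AHR), which binds DNA at elements with the core GCGTG.

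The proximal promoters of 8 members are shown because they show the element through which interferon acts on such genes, and because the Ifit genes differ in it. Each run covers 140 bases, from 160 to 21 bases before the most upstream RefSeq start of the gene on GRCm38.p6, written 5′ to 3′ along the strand of the gene. Capitals mark matches to the ISRE core GAAANNGAA on either strand.
Isg15, chr4:156200839-156200978, minus strand: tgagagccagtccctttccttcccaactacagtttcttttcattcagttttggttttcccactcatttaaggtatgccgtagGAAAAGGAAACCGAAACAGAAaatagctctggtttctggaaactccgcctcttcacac
Ifit1, chr19:34640729-34640868, plus strand: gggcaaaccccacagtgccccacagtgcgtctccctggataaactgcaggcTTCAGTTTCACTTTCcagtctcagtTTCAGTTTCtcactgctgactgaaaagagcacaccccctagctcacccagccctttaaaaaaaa
Ifit3, chr19:34583369-34583508, plus strand: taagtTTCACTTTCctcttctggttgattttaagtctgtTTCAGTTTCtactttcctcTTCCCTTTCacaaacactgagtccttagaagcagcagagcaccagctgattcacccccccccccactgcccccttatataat
Ifit2, chr19:34550534-34550673, plus strand: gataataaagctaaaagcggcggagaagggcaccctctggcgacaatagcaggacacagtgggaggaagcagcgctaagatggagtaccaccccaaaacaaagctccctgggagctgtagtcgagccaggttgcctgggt
Oas3, chr5:120777680-120777819, minus strand: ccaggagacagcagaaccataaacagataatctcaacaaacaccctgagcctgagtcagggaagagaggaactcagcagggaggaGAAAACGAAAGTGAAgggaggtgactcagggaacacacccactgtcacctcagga
Rsad2, chr12:26456473-26456612, minus strand: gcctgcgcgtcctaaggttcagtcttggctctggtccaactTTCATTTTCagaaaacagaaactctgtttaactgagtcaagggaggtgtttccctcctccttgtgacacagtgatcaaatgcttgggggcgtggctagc
Gbp3, chr3:142559884-142560023, plus strand: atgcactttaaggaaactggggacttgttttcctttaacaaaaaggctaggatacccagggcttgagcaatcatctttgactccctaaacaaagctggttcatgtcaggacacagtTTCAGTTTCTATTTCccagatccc
Igtp, chr11:58199396-58199535, plus strand: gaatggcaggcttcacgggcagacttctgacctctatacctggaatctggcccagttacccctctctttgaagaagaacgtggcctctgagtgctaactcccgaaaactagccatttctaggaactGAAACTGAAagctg
Isg15, Ifit1 and Ifit3 each held 3 matches, Oas3 and Gbp3 held 2, Rsad2 and Igtp held 1, and Ifit2 held none. Matches of Isg15, Ifit1, Oas3 and Gbp3 partly overlapped each other. The GAS letters TTCNNNGAA were searched in the same way, and the promoter of Irf1 is shown for its match, in capitals.
Irf1, chr11:53769854-53769993, plus strand: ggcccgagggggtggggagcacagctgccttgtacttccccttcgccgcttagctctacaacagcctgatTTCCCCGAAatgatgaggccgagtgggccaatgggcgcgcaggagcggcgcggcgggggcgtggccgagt

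A promoter window of 300 bases, from 250 before to 50 after the RefSeq start, was found for 34 of the 44 members. The ISRE core was present for 22 of these, or 64.7%, against 9.76% of the 27025 genes with a window. At least 2 matches, overlapping ones counted, stood in 32.5% of the members' 40 windows and in 0.624% of all 32851 windows. The GAS letters were present for 12 members (35.3%, against 9.55% of all genes) and the AHR core GCGTG for 16 (47.1%, against 35.2%). A single stretch of bases can match both the ISRE and the GAS letters in part. These are matches of letters and not measured binding, and no test was made of the shares.

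**Figure D1:**
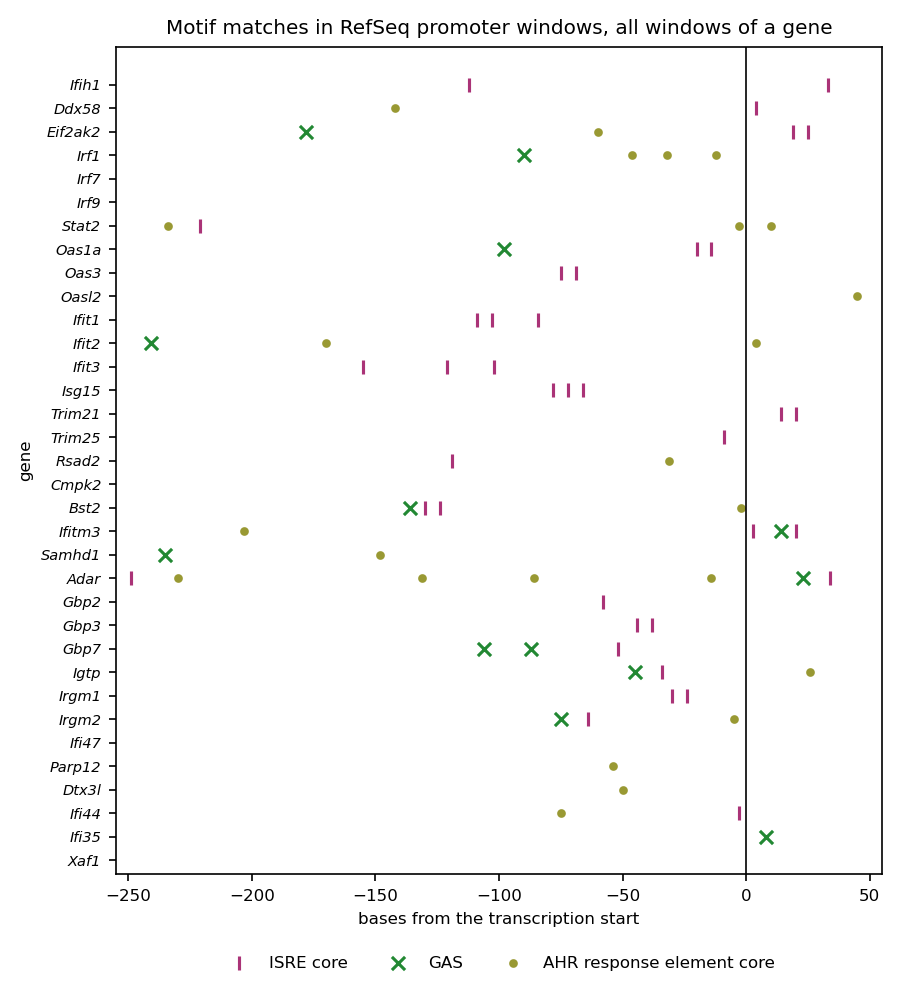
Position of each match in the promoter windows of the 34 members with a window. The horizontal axis gives bases from the transcription start, each row is a gene, and the signs mark matches to the ISRE core, the GAS and the AHR core on either strand, over all RefSeq windows of the gene. Most ISRE matches lie within the 150 bases before the start, and 22 of the 34 genes have at least 1.

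Library totals ran from 38328611 to 50210111 counts, so that 3 counts in a library corresponded to a level of 0.0603 to 0.0787 CPM, the counts scaled to a common library total. The AHR targets Cyp1a1, Ahrr, Tiparp and Cyp1b1 did not overlap between the groups, each FICZ library lying above each DMSO library. For Cyp1a1, which encodes a xenobiotic-metabolising monooxygenase, the normalised levels were 35.2, 26.9, 42.9, 11.6 and 17.2 CPM in DMSO libraries 1 to 5 and 317, 287, 355, 144 and 172 CPM in FICZ libraries 1 to 5. Over all 14251 genes tested, 3 passed an adjusted p of 0.05 in edgeR's quasi-likelihood test (0.0211%), and 8 did in a fit with the replicate block, which takes out differences between the numbers (0.0561%). The count of 3 became 1 without DMSO library 1 or 2 or FICZ library 1, 2 or 3. All 10 ASPC markers were detected, with Pdgfra between 1181 and 1472 CPM in all libraries. Macrophage markers, which the sort should remove, summed to 29.3 to 82.5 CPM in DMSO and 28.8 to 43.1 CPM in FICZ, and 15 hepatocyte markers to 1794 to 10572 CPM and 1924 to 2603 CPM. DMSO library 5 held the highest of both sums, 82.5 and 10572 CPM, and DMSO library 1 followed with 48.4 and 4405 CPM.

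All 44 members passed the filter on low counts. Their mean levels in DMSO ran from 0.426 CPM for Mx1 to 433 CPM for Ifitm3, and the fitted mean was higher in FICZ for 43 of them, as it was for 53.8% of all genes tested. None of the 44 passed the adjusted threshold: the smallest Benjamini-Hochberg adjusted p was 0.999 in edgeR, 0.735 in edgeR with the replicate block, 0.316 in DESeq2 and 0.125 in DESeq2 with the block. At an unadjusted p of 0.05 in edgeR, 22 of the 44 were higher in FICZ and none was lower, where 1.33% of all genes tested were higher and 3.49% lower. With the replicate block 6 were higher, where 2.48% of all genes were. The count of 22 became 11 without DMSO library 1, 14 without DMSO library 3, 9 without FICZ library 1, 12 without FICZ library 3 and 36 without FICZ library 2.

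The median log2 fold change of the 44 genes was 0.60, against 0.01 over all genes tested, and single genes ran from -0.05 to 2.59. Without FICZ library 1 that median was 0.38. No member had groups that did not overlap, which held in the upward direction for 0.351% of all genes. The members are genes of one response and not replicates of the treatment, so their number adds no precision to the comparison of 5 libraries with 5.

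**Figure D2:**
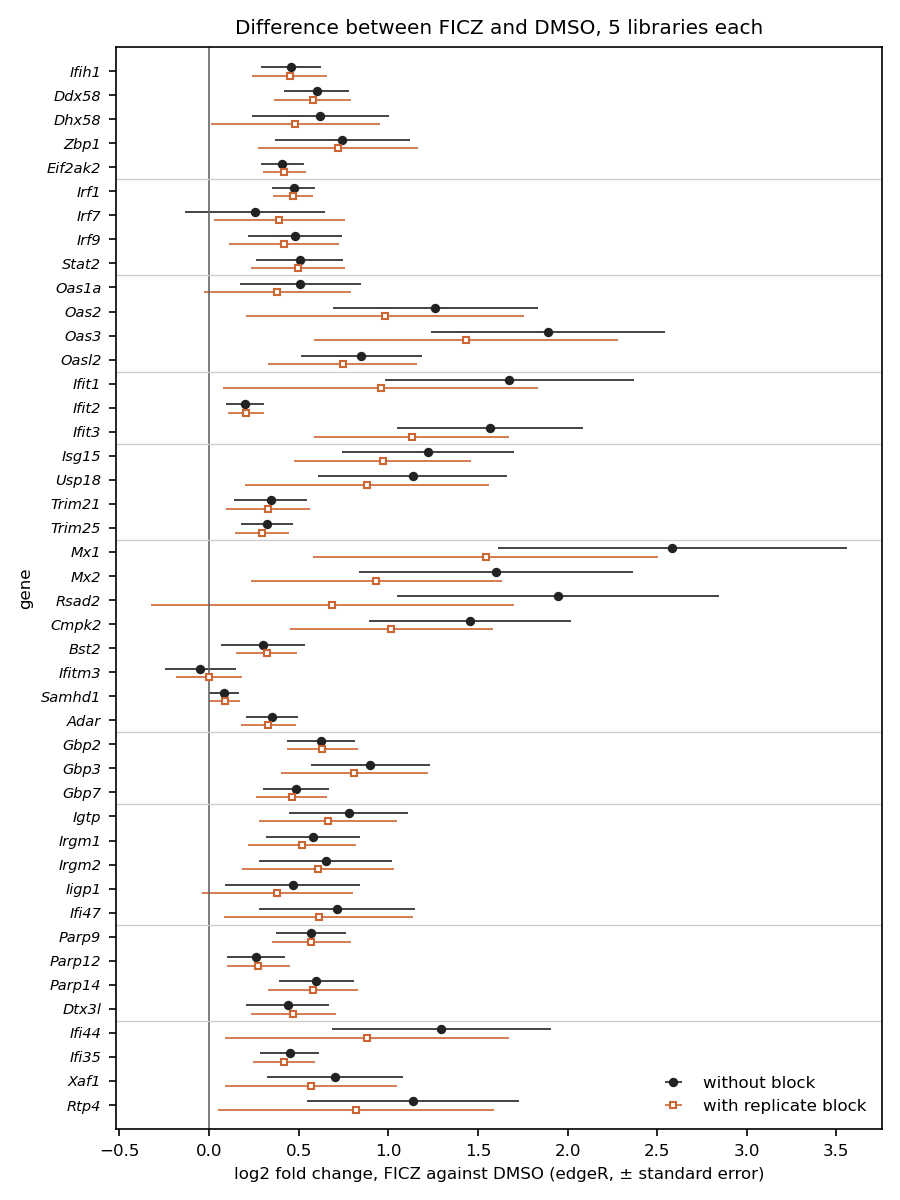
Log2 fold change of each member between FICZ and DMSO on the horizontal axis, with its standard error, from edgeR without a block (filled circles) and with the replicate block (open squares). Genes are grouped by role from top to bottom. All but Ifitm3 lie above 0, the widest error bars without the block belong to Mx1, Rsad2 and Mx2 and with it to Rsad2, Mx1 and Ifit1, and the replicate block gives Rsad2 a value of 0.69 in place of 1.94.

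The mean log2 CPM of the 44 genes showed which libraries carried the difference. It was 3.53, 3.99, 3.62, 4.37 and 4.26 in DMSO libraries 1 to 5 and 5.49, 3.68, 5.13, 4.53 and 4.09 in FICZ libraries 1 to 5. FICZ libraries 1 and 3 were the highest of the 10, whereas FICZ library 2 lay below 3 of the 5 DMSO libraries and FICZ library 5 below DMSO libraries 4 and 5. The group means were 3.96 ± 0.37 (SD, n = 5) and 4.58 ± 0.74 (SD, n = 5), a difference of 0.63 where the SD within groups was 0.59. Without FICZ library 1 this difference was 0.40. Without FICZ libraries 1 and 3, left out after the data were seen, it was 0.14, and without the libraries numbered 1 and 3 in both groups it was -0.115. In those last settings, 36 and 19 of the 44 genes had a higher mean in FICZ, and 2 and 1 reached an unadjusted p of 0.05 in edgeR.

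Same-numbered libraries differed as strongly in direction. FICZ minus DMSO was 1.96, -0.31, 1.5, 0.15 and -0.17 on the mean log2 scale for numbers 1 to 5. All 44 genes were higher with FICZ in pairs 1 and 3, 38 in pair 4, 18 in pair 5 and 6 in pair 2. The median fold over the 44 genes was 2.97 in pair 1 and 2.57 in pair 3, against 1.11, 0.879 and 0.815 in pairs 4, 5 and 2. The DMSO libraries of pairs 1 and 3 had the lowest member means of the 10: DMSO library 1 held the lowest value of 19 genes and DMSO library 3 of 16. 3 genes, Irf1, Gbp2 and Ifi35, were higher with FICZ in all 5 pairs, which held for 4.32% of all genes tested.

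**Figure D3:**
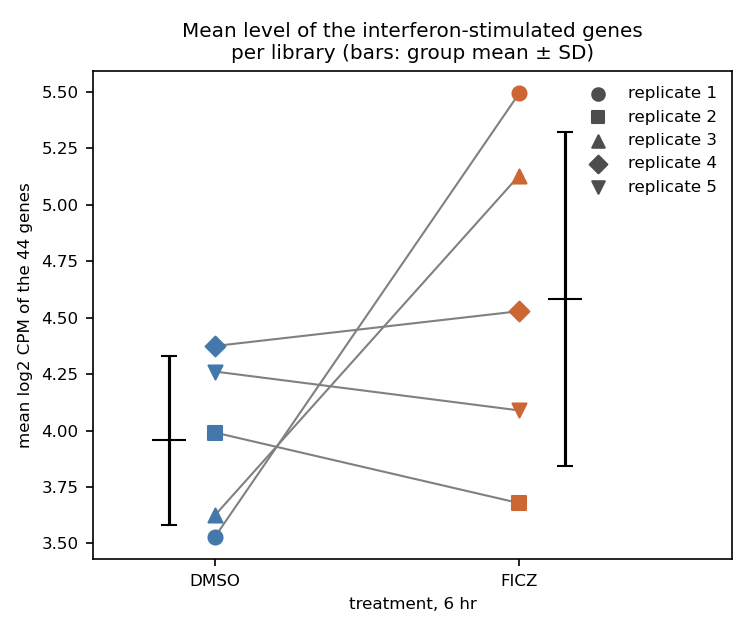
Mean log2 CPM of the 44 genes in each library on the vertical axis, by treatment, with lines joining libraries of the same number and bars for the group mean ± SD (n = 5). The lines of replicates 1 and 3 climb from the lowest DMSO values, 3.53 and 3.62, to the highest FICZ values, 5.49 and 5.13, and the other 3 lines change by -0.31 to 0.15.

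FICZ libraries 1 and 3 were the 2 highest of all 10 for 36 of the 44 genes, a pattern that 3.44% of all genes tested had. FICZ library 1 alone was the highest for 36 genes, and FICZ library 2 was the lowest of the FICZ group for 40. Marker sums of other cell types are given for the same libraries. Macrophage markers (17 genes, of which 15 were tested and 13 had a lower mean in FICZ) summed to 36.0 CPM in FICZ library 1 and 43.1 in FICZ library 3, the highest of the FICZ group, against 28.8 to 34.1 in the other FICZ libraries and 29.3 to 82.5 in DMSO. Csf1r was the most abundant of them in FICZ libraries 1 and 3, at 13.3 and 18.3 CPM, while Ptprc, which encodes CD45, was at 0.305 and 0.328 CPM. Lymphoid and plasmacytoid markers other than Bst2 summed to 0.586 and 0.429 CPM in FICZ libraries 1 and 3, with Cd3e and Siglech at 0 counts in both. Endothelial markers, 8 genes, summed to 80.5 and 70.4 CPM in FICZ libraries 1 and 3, the latter the lowest of the FICZ group. The other FICZ libraries had 72.4 to 86.0 CPM and the DMSO libraries 65.7 to 89.5 CPM. Of the 7 endothelial markers tested, 6 had a lower mean in FICZ. All 15 hepatocyte markers had a lower mean in FICZ, and their sums were 2541 and 2603 CPM in FICZ libraries 1 and 3, again the highest of the FICZ group, against 1924 to 2381 in its other libraries and 1794 to 10572 in DMSO. The 10 ASPC markers summed to 10219 and 10167 CPM in FICZ libraries 1 and 3, the lowest of the 10 libraries by a small margin. FICZ library 2 had 10299 CPM and DMSO libraries 1 to 3 had 10375 to 10683 CPM. The libraries numbered 4 and 5 of both groups had 11759 to 15160 CPM. Of the AHR targets, Cyp1a1 had its highest levels in FICZ libraries 1 and 3 (317 and 355 CPM) and FICZ library 2 followed closely (287 CPM). DMSO libraries 1 and 3 were likewise the highest of the DMSO group for Cyp1a1 (35.2 and 42.9 CPM). Ahrr, the AHR repressor, was at 31.7, 34.1, 32.5, 27.4 and 34.6 CPM in FICZ libraries 1 to 5. The part of these levels in the difference between the libraries was not tested. In bulk RNA, a larger fraction of responding cells and more RNA per cell cannot be told apart.

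**Figure D4:**
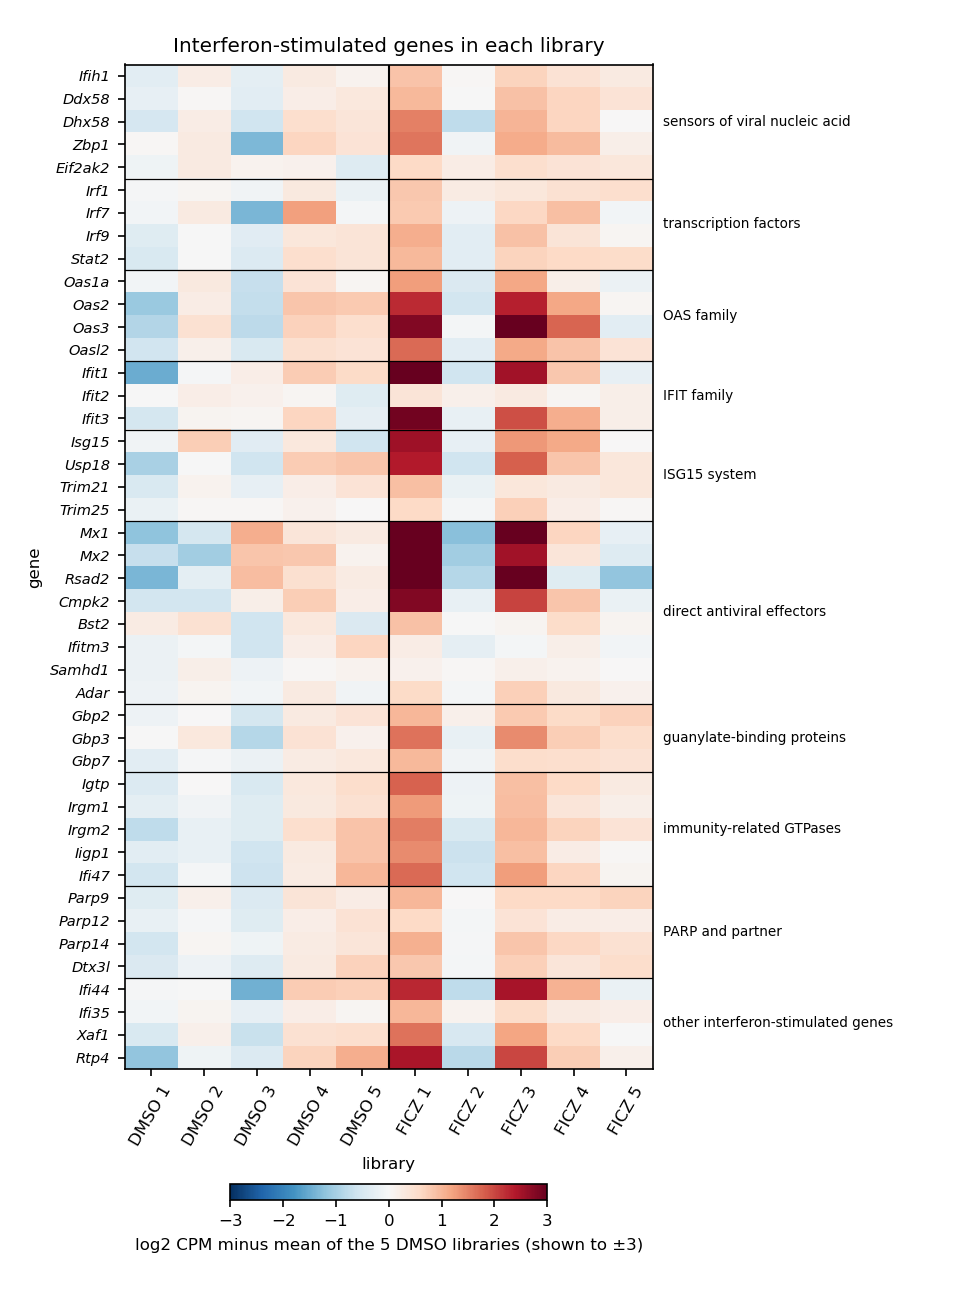
Log2 CPM of each member in each library minus its mean over the 5 DMSO libraries, with colours limited at ±3, genes in rows by role and libraries in columns. FICZ 1 and FICZ 3 are the reddest columns, FICZ 2 is pale to blue in most rows, and DMSO 1 and DMSO 3 are the bluest of the DMSO columns.

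Among the sensors of viral nucleic acid, 3 of 5 reached an unadjusted p of 0.05 in edgeR and none an adjusted one. Ddx58, at chr4:40203773-40239828, encodes RIG-I, which recognises viral RNA by its uncapped 5′ end. Its levels were 47.7, 58.3, 45.5, 65.2 and 70.0 CPM in DMSO libraries 1 to 5 and 111, 56.3, 103, 89.0 and 75.2 CPM in FICZ libraries 1 to 5. Only FICZ library 2 fell within the DMSO range, and the log2 fold change was 0.60 ± 0.18 (SE). Eif2ak2, at chr17:78852564-78882573, encodes PKR, a kinase activated by double-stranded RNA that halts translation. It measured 51.6, 67.3, 60.8, 61.4 and 43.3 CPM in DMSO and 85.6, 65.8, 79.8, 75.2 and 71.2 CPM in FICZ. The groups overlapped by a single library on each side, FICZ 2 and DMSO 2, and the log2 fold change was 0.41 ± 0.12 (SE). The exact two-sided permutation p of Eif2ak2 was 0.0159, with 0.00794 the smallest that 5 against 5 allows. The adjusted permutation value was 1, as it was for every gene tested, Cyp1a1 included. Here and below it therefore does not separate the genes. Ifih1, the RNA sensor MDA5, ran from 24.2 to 36.6 CPM in DMSO and 31.1 to 54.6 CPM in FICZ (log2 fold change 0.46 ± 0.17, SE). Dhx58 and Zbp1, an RNA sensor related to RIG-I and a sensor of Z-form nucleic acid, had log2 fold changes of 0.62 and 0.74 with FICZ library 1 highest at 18.3 and 24.1 CPM.

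Of the 4 transcription factors, Irf1 had the smallest unadjusted p of all 44 members in edgeR, with and without the block. It lies at chr11:53770014-53778374 and encodes an activator induced early by interferon gamma. Irf1 measured 51.5, 54.9, 49.2, 64.9 and 46.1 CPM in DMSO and 92.1, 63.0, 67.0, 72.9 and 74.8 CPM in FICZ. Only DMSO library 4 exceeded the lowest FICZ library, and the same-numbered log2 differences were 0.84, 0.20, 0.45, 0.17 and 0.70. Its log2 fold change was 0.47 ± 0.12 (SE), its exact two-sided permutation p 0.0159 (adjusted 1) and its adjusted p in edgeR 0.999, or 0.735 with the replicate block. Leaving out the libraries numbered 1 and 3 in both groups left a log2 fold change of 0.34, the largest of the 44 in that setting, followed by 0.30 for Eif2ak2. Those libraries were picked once the members' values in them were known. For Irf1, unlike 36 of the 44 members, FICZ libraries 1 and 3 were not the 2 highest. The ranking in that setting therefore cannot single out Irf1. The 2 RefSeq promoter windows of Irf1 held the GAS letters once, the AHR core GCGTG 3 times and no ISRE core. The AHR core was present for 35.2% of all genes with a window, and 11.1% of all windows held it at least 2 times. The only window of Stat2 held it 3 times.

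Irf9 and Stat2, partners in the complex that binds the ISRE, had log2 fold changes of 0.48 ± 0.26 and 0.50 ± 0.24 (SE), and neither reached an unadjusted p of 0.05. Irf7, which amplifies type I interferon production, measured 41.8, 52.9, 16.9, 103 and 42.3 CPM in DMSO and 76.2, 39.6, 67.9, 82.6 and 41.3 CPM in FICZ. The highest and the lowest of its 10 values were both DMSO libraries, and the log2 fold change of 0.26 ± 0.39 (SE) was smaller than its error.

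The OAS family encodes enzymes that make 2-5A, the activator of RNase L, and Oasl2 is a relative of them. Oas3, at chr5:120753098-120777661, measured 0.367, 0.984, 0.389, 1.18 and 1.03 CPM in DMSO and 5.13, 0.679, 5.93, 2.49 and 0.555 CPM in FICZ. FICZ libraries 1, 3 and 4 lay above every DMSO library and FICZ libraries 2 and 5 within the DMSO range. The log2 fold change was 1.89 ± 0.65 (SE), or 1.43 with the replicate block, and its exact two-sided permutation p was 0.127. Oas2, in the same cluster, ran from 1.05 to 4.19 CPM in DMSO and 1.59 to 11.9 CPM in FICZ (log2 fold change 1.26 ± 0.57, SE). Oasl2 was at 19.1 to 39.8 CPM in DMSO and 22.8 to 93.2 CPM in FICZ, with a log2 fold change of 0.85 ± 0.34 (SE). Oas1a, for which 57.6% of the 50-base words of its exons also occur in other genes, mostly Oas1g, had one of 0.51 ± 0.34 (SE), and its counts are uncertain for that reason.

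Of the IFIT proteins, IFIT1 binds viral RNA at its 5′ end and blocks its translation. The 3 members lie in the same cluster on chromosome 19 (Ifit2 at chr19:34550694-34576419, Ifit3 at chr19:34583531-34588731 and Ifit1 at chr19:34640871-34650009). Ifit3 measured 9.23, 14.2, 14.0, 21 and 11.2 CPM in DMSO and 99.8, 11.5, 51.3, 28.7 and 15.2 CPM in FICZ. Ifit1 was at 2.7, 7.47, 8.73, 13 and 11.4 CPM in DMSO and 70.0, 5.01, 43.9, 13.3 and 6.47 CPM in FICZ. For both, FICZ libraries 1, 3 and 4 exceeded the DMSO range, although FICZ library 4 did so for Ifit1 by 13.3 against 13 CPM only. The log2 fold changes were 1.57 ± 0.52 (SE) for Ifit3 and 1.68 ± 0.69 (SE) for Ifit1, and 1.13 and 0.96 with the replicate block. Ifit3 shares 51.2% of its 50-base words with other genes, mostly Ifit3b, and Ifit1 7.13%.

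Ifit2, the third of the cluster, varied little between the libraries. It measured 59.3, 68.9, 66.5, 62.6 and 46.9 CPM in DMSO and 79.4, 66.6, 72.3, 62.8 and 68.3 CPM in FICZ. Its highest library was 1.69 times its lowest, against 10.8 times for Ifit3 and 25.9 times for Ifit1, and its log2 fold change was 0.20 ± 0.11 (SE). The printed stretch of its promoter held no ISRE core, unlike those of Ifit1 and Ifit3. Members outside the cluster differed in this. Cmpk2 and Oasl2 also had no ISRE core in their 300-base windows, and their highest libraries were 10.3 and 4.87 times their lowest. Ifitm3 had 2 matches, and its highest library was 2.38 times its lowest. Whether the core bears on the values was not tested. Per kilobase of exon, Ifit2 had the third highest mean of the 44 genes in DMSO, at 15.5 ± 2.19 CPM per kb (SD, n = 5), against 7.99 ± 2.56 for Ifit3 and 3.26 ± 1.5 for Ifit1.

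Isg15 encodes a ubiquitin-like protein that is conjugated to other proteins, Usp18 the protease that removes it and restrains IFNAR2, and Trim25 and Trim21 ubiquitin ligases of antiviral signalling. Isg15, at chr4:156199424-156200818, measured 7.53, 13.5, 6.46, 10.2 and 5.38 CPM in DMSO and 47.4, 6.85, 20.2, 18.1 and 8.27 CPM in FICZ. FICZ libraries 1, 3 and 4 lay above all DMSO libraries, and the log2 fold change was 1.22 ± 0.48 (SE). Trim25 was at 58.3 to 73.4 CPM in DMSO and 64.6 to 110 CPM in FICZ (log2 fold change 0.32 ± 0.15, SE), its upper values again in FICZ libraries 1 and 3. Usp18 and Trim21, which did not reach an unadjusted p of 0.05 in edgeR, had log2 fold changes of 1.14 and 0.34.

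The 8 direct antiviral effectors spanned the whole range of responses, from the largest log2 fold change to the one negative value. Mx1, at chr16:97447035-97462907, encodes a dynamin-like GTPase that traps viral components. It measured 0.131, 0.241, 0.825, 0.484 and 0.452 CPM in DMSO and 7.14, 0.127, 4.77, 0.599 and 0.3 CPM in FICZ. Mx1 was under 1 CPM in the other 8 libraries, FICZ libraries 1 and 3 held most of its FICZ counts, and FICZ library 2 was the lowest of the 10. Its log2 fold change of 2.59 ± 0.97 (SE) was the largest of the 44, with an exact two-sided permutation p of 0.302, and it was -0.32 without FICZ libraries 1 and 3. Rsad2, at chr12:26442746-26456452, encodes viperin, a radical SAM enzyme that makes a chain-terminating nucleotide. It measured 1.02, 2.21, 5.25, 3.85 and 3.24 CPM in DMSO and 32.8, 1.49, 22.5, 2.12 and 1.18 CPM in FICZ. FICZ libraries 2, 4 and 5 were all below the 3 highest DMSO libraries, and the log2 fold change moved from 1.94 ± 0.90 (SE) to 0.69 with the replicate block and to -0.96 without FICZ libraries 1 and 3. Cmpk2, a nucleotide kinase gene next to Rsad2, ran from 1.99 to 4.93 CPM in DMSO and 2.50 to 20.4 CPM in FICZ (log2 fold change 1.46 ± 0.56, SE). Mx2, which the annotation lists as a polymorphic pseudogene, was at 0.462 to 1.81 CPM in DMSO and 0.467 to 9.06 CPM in FICZ, with a log2 fold change of 1.60 ± 0.76 (SE).

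The abundant effectors varied far less. Ifitm3, which blocks viral fusion in endosomes, had the highest mean per kilobase of the 44 in DMSO at 639 ± 207 CPM per kb (SD, n = 5). It measured 369, 398, 272, 478 and 647 CPM in DMSO and 489, 347, 401, 467 and 389 CPM in FICZ, so that the FICZ libraries lay inside the DMSO range. Its log2 fold change was -0.05 ± 0.20 (SE), with the sign turning in 4 of the alternative settings (0.14 without DMSO library 5, which held its highest value). Samhd1, which breaks down deoxynucleotides, ran from 107 to 135 CPM in DMSO and 121 to 133 CPM in FICZ and had the smallest SD of the members within groups, 0.12 on the log2 scale. Bst2, the tether of budding virions, had the second highest mean per kilobase, 82.0 ± 25 CPM per kb (SD, n = 5), and a log2 fold change of 0.30 ± 0.23 (SE). Adar, an enzyme that edits adenosines of double-stranded RNA, was at 43.8 to 59.1 CPM in DMSO and 47.1 to 80.1 CPM in FICZ (log2 fold change 0.35 ± 0.15, SE), and 1365 of its exon bases overlap Chrnb2 on the opposite strand.

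Guanylate-binding proteins and immunity-related GTPases are induced chiefly by interferon gamma and act on pathogen-containing vacuoles. All 3 guanylate-binding protein genes reached an unadjusted p of 0.05 in edgeR, and they lie together on chromosome 3. Gbp2, at chr3:142620602-142638008, measured 24.3, 27.1, 18.7, 32.7 and 36.1 CPM in DMSO and 54.0, 29.9, 46.3, 40.3 and 43.6 CPM in FICZ. Only FICZ library 2 fell within the DMSO range, and the log2 fold change was 0.62 ± 0.19 (SE), or 0.24 without the libraries numbered 1 and 3. Gbp3 ran from 8.96 to 22.0 CPM in DMSO and 14.1 to 50.8 CPM in FICZ, with a log2 fold change of 0.90 ± 0.33 (SE). Gbp7 was at 16.5 to 25.6 CPM in DMSO and 19.1 to 40.7 CPM in FICZ, with one of 0.48 ± 0.19 (SE).

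The 5 immunity-related GTPases had log2 fold changes between 0.47 and 0.78, and FICZ libraries 1 and 3 were the highest for all 5. Igtp measured 6.00, 8.12, 5.82, 10.0 and 11.6 CPM in DMSO and 27.2, 7.21, 15.1, 12.2 and 9.7 CPM in FICZ. Its DMSO libraries 4 and 5 exceeded FICZ libraries 2 and 5, and the log2 fold change was 0.78 ± 0.33 (SE). Irgm1, a regulator of the other GTPases, ran from 31.1 to 55.2 CPM in DMSO and 36.6 to 96.6 CPM in FICZ (0.58 ± 0.26, SE). Irgm2, Iigp1 and Ifi47 did not reach an unadjusted p of 0.05, and each had its highest DMSO value in DMSO library 5. Igtp and Irgm2 share exon bases on the same strand, with 11.8% and 7.77% of their 50-base words found in other genes, so that their counts are not fully separate.

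Parp9 and Dtx3l encode an ADP-ribosyltransferase and its ubiquitin ligase partner, whose genes adjoin on chromosome 16 and overlap by 458 exon bases on opposite strands. Parp9 measured 25, 35.7, 24.1, 42.2 and 37.6 CPM in DMSO and 63.9, 32.5, 48.6, 48.3 and 51.0 CPM in FICZ. 4 of its 5 FICZ libraries lay above every DMSO library, with FICZ library 2 the exception, and the log2 fold change was 0.57 ± 0.19 (SE). Parp14, an ADP-ribosyltransferase of the same region, ran from 25 to 47.0 CPM in DMSO and 35.5 to 76.9 CPM in FICZ (0.60 ± 0.21, SE). Parp12 and Dtx3l had log2 fold changes of 0.26 and 0.44.

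Of the remaining 4 members, Ifi35, which encodes a partner of NMI, measured 21.1, 23.3, 18.6, 25.5 and 23.0 CPM in DMSO and 44.4, 23.8, 32.3, 26.6 and 25.3 CPM in FICZ. FICZ libraries 2 and 5 fell below DMSO library 4 only, the log2 fold change was 0.45 ± 0.16 (SE), and the exact two-sided permutation p was 0.0238 (adjusted 1). Ifi44, Xaf1 and Rtp4 had larger log2 fold changes, 1.30, 0.70 and 1.14, but wider spread, and did not reach an unadjusted p of 0.05 in edgeR. The members that reached it with the replicate block were Ddx58, Eif2ak2, Irf1, Gbp2, Parp9 and Ifi35. The same 6 had an exact two-sided permutation p of at most 0.05, which 1.58% of all genes tested reached in the upward direction. That permutation test did not use the replicate numbers, so it is not a test of the pairs. Each of the 6 genes had a mean of at least 22.3 CPM in DMSO and a log2 fold change of 0.41 to 0.62.

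Members varied more between libraries of one group than genes in general did, given here as a description with no test. Their median SD within groups was 0.61 on the log2 scale, against 0.22 over all genes tested, and 22 of the 44 lay in the top 10% of all genes by this SD. The largest values were those of Mx1 (1.79), Rsad2 (1.72), Mx2 (1.42), Ifit1 (1.34) and Oas3 (1.22), and the smallest those of Samhd1 (0.12), Ifit2 (0.18) and Irf1 (0.20). In DMSO alone the median SD was 0.47, against 0.24 over all genes, so that the vehicle libraries also differed in these genes. DMSO library 4 was the highest of the DMSO group for 19 of the 44 genes. DMSO library 5, with the highest macrophage and hepatocyte marker sums, was so for 17. The part of those sums in this spread was not tested. In FICZ the median SD was 0.64, against 0.19, and the SD was larger in FICZ than in DMSO for 33 of the 44 genes and for 5258 of all 14251. The 16 members under 10 CPM in DMSO had a median SD of 1.01, against 0.40 for all genes at that level, and the 28 others 0.36 against 0.18. At either level, the members varied more than genes in general. They were chosen with earlier results of these data known, and many share the same high and low libraries. The counts of members are therefore not separate pieces of evidence.

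**Figure D5:**
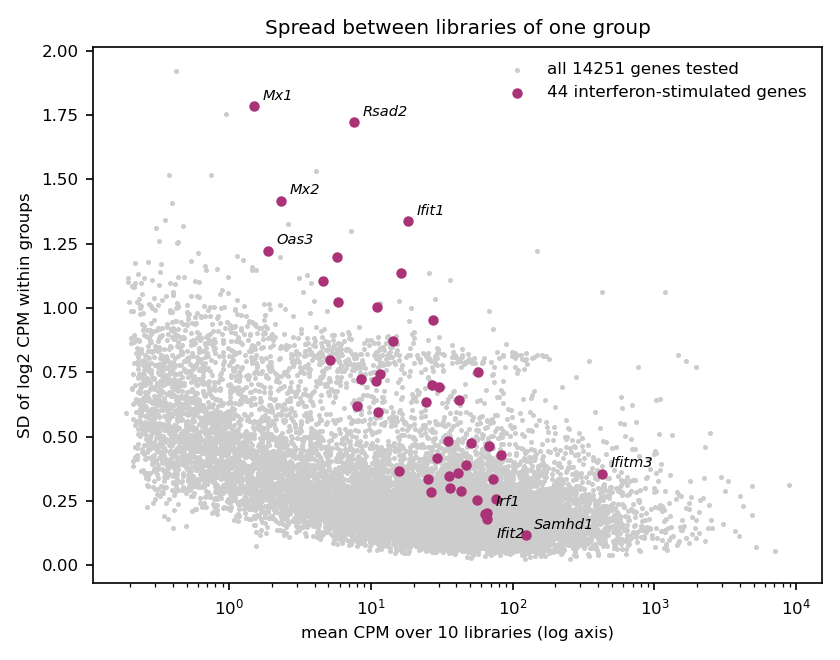
SD of log2 CPM within groups on the vertical axis against the mean CPM over the 10 libraries on a logarithmic horizontal axis, for all 14251 genes tested (grey) and the 44 members (purple). Mx1, Rsad2, Mx2, Ifit1 and Oas3 lie at 1.22 to 1.79, above nearly all genes of their level, and Samhd1, Ifit2 and Irf1 at 0.12 to 0.20.

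Genes upstream of the response were taken from a list of 39, of which 37 were rows of the table under the symbols used and 25 passed the filter. None of the 25 passed the adjusted threshold in edgeR (smallest adjusted p 0.999), with the replicate block (0.761) or in DESeq2 without (0.704) or with the block (0.415), and 1 was higher and 1 lower at an unadjusted p of 0.05. Of 10 interferon genes, 8 had 0 counts in every library, among them Ifnb1, which encodes interferon beta, and no library held more than 2 counts of any. With 3 counts as the floor, Ifnb1 transcripts of up to 0.0603 to 0.0787 CPM in a library would not have been detectable at 6 hr. The receptors were present in all libraries: Ifnar1 was at 99.6 to 112 CPM, Ifnar2 at 40.1 to 50.8, Ifngr1 at 63.6 to 79.8 and Ifngr2 at 52.1 to 84.0. Their log2 fold changes ran from -0.09 to 0.10.

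Jak1, the kinase shared by both receptor types, measured 541, 604, 549, 640 and 610 CPM in DMSO and 643, 686, 640, 729 and 796 CPM in FICZ. Its groups did not overlap, by a margin smaller than 1 CPM between DMSO library 4 and FICZ library 3. The log2 fold change was 0.25 ± 0.09 (SE). The exact two-sided permutation p was 0.00794, the smallest possible, and its adjusted value was 1, as for every gene tested. Jak1 was highest in FICZ libraries 5 and 4, unlike the 44 members. Tyk2 had a log2 fold change of -0.06, Irf3, which switches on interferon transcription, one of 0.01, and Socs1, a feedback inhibitor, one of 0.16. Irf8, a factor of myeloid cells, was at 0.573 to 1.23 CPM in DMSO and 0.403 to 0.670 CPM in FICZ (-0.80 ± 0.28, SE). Tlr7, a sensor of single-stranded RNA, reached an unadjusted p of 0.05 only with the replicate block, with a log2 fold change of 0.37 in that fit.

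A list of 50 other interferon-stimulated genes outside the 44 gave 47 that passed the filter. None passed the adjusted threshold in edgeR (smallest adjusted p 0.999), with the block (0.8) or in DESeq2 without (0.686) or with the block (0.543). 42 of the 47 had a higher mean in FICZ (53.8% of all genes tested did), 17 were higher at an unadjusted p of 0.05 in edgeR (1.33% of all genes), and 12 were with the replicate block (2.48%). The median log2 fold change was 0.31. FICZ libraries 1 and 3 were the 2 highest for 20 of them, against 3.44% of all genes. Cxcl10, a chemokine that attracts T cells, measured 0.629, 1.21, 3.07, 2.53 and 2.42 CPM in DMSO and 15.8, 0.785, 10.9, 3.04 and 0.878 CPM in FICZ. Its order of libraries was that of Rsad2 and Mx1 at the top, FICZ 1 and then FICZ 3, and the log2 fold change was 1.66 ± 0.78 (SE). Ifit3b was at 29.4 and 14.9 CPM in FICZ libraries 1 and 3 and at 1.31 to 6.84 in the other 8.

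Smaller differences with less spread than those of Cxcl10 and Ifit3b were seen in the same list. Mlkl, the executor of necroptosis, was at 37.6 to 57.5 CPM in DMSO and 57.9 to 72.6 CPM in FICZ, without overlap (log2 fold change 0.31 ± 0.12, SE). Znfx1, an RNA helicase-like sensor, had one of 0.29 ± 0.10 (SE), Pnpt1, a mitochondrial exoribonuclease, 0.22 ± 0.09, and Parp10, an ADP-ribosyltransferase, 0.42 ± 0.15. Isg20, an exonuclease, gave 0.43 ± 0.16 (SE), Gbp6 0.80 ± 0.28 and Tor3a 0.39 ± 0.16.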

How the data were processed

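RNA of 10 cultured ASPC libraries (5 DMSO, 5 FICZ) was sequenced. The authors deposited raw gene counts, one whole number per gene and library, and the submitters' processing notes name STAR 2.7.7 and mm10. The counting program and its use of strand are not given in the sources used here. Groups and numbers were taken from the labels.

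Counts were fitted in edgeR 4.0.16 (R 4.3.3; filterByExpr, TMM, robust quasi-likelihood test, treatment only) over 14251 genes with Benjamini-Hochberg adjustment; 5934 rows had no counts. CPM are TMM-normalised; log2 CPM used a prior count of 2. Permutation tests were exact over 252 arrangements. Alternatives were other scalings and filters, DESeq2 1.42.0, limma-voom 3.58.1, the replicate block and leaving out libraries. The main fit, edgeR with the block, DESeq2 without it and limma-voom were tested on simulated data that held no pair differences. The other settings were not. No 2 libraries of a group agreed within sampling noise (chi-square per degree of freedom 15.7 or more). Intervals were not given for counts; depth limits cover counting error only.

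Over all genes tested, same-numbered libraries deviated together. The correlation of their deviations from the group means was 0.154 to 0.317 in the 5 pairs, against a mean of -0.06 between different numbers. The numbers were therefore taken to pair the libraries. The pairing comes from this check and not from the labels. It was not seen in the mean log2 CPM of the 44 members, which deviated in opposite directions in all 5 pairs. Those deviations were -0.43, 0.04, -0.33, 0.42 and 0.31 in DMSO libraries 1 to 5. In FICZ libraries 1 to 5 they were 0.91, -0.90, 0.55, -0.06 and -0.49.

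Gene positions, exon lengths and shared 50-base words came from GENCODE M21 (GRCm38), and promoter sequences from RefSeq (GRCm38.p6), with 34 of 44 members matched. Members named in full had an unadjusted p of at most 0.05 with or without the block, 1 of the 5 largest fold changes, 1 of the 5 largest or 3 smallest SDs, or 1 of the 5 highest levels per kilobase; the others are given by role. 1 gene of the pathway list is not reported here on its own. The members and lists were chosen with earlier results of these data known.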

Additional observations from a re-analysis of the deposited data

Results flagged for a closer look

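Of 118 groups of 5 libraries checked for a library far from the others, over the named genes in each treatment, 1 stood out, where chance gives about 5.9. Ahrr, the AHR repressor and not an interferon-stimulated gene, was lower in DMSO library 4 (6.24 CPM) than in the other DMSO libraries (10.6 to 11.6 CPM), with a gap of 0.857 of the range of its group. No interferon-stimulated gene was singled out in this way. The check looks for 1 library apart from the rest of its group, so libraries that are high together hide each other from it. FICZ libraries 1 and 3 ranked above all other libraries for 36 of the 44 members, with Rsad2 at 32.8 and 22.5 CPM. For those genes the check cannot decide whether a library deviated.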

How the results depend on the processing

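No interferon-stimulated gene passed the adjusted threshold in any of the settings tried, and the same held for the pathway list and the other interferon-stimulated genes; at an unadjusted p of 0.05 in edgeR 22 members, 17 other interferon-stimulated genes and 1 pathway gene were higher and 1 pathway gene was lower. The count of 22 was 11 in limma-voom, 6 in edgeR with the replicate block, 14 in DESeq2 with the replicate block, 9 to 36 on leaving out 1 library, 2 without FICZ libraries 1 and 3 and 1 without libraries 1 and 3 of both groups. Over all genes the count of 3 past the adjusted threshold was 16 in DESeq2, 8 in edgeR with the replicate block, 26 in DESeq2 with the replicate block (DESeq2 tested the 19295 genes with any count; 14 and 25 of its calls were among the 14251 genes of edgeR), 1 to 4 on leaving out 1 library, and 0 in both settings without libraries 1 and 3. With the replicate block, Tiparp had an adjusted p of 0.0509 in edgeR and was no longer called; the block changed no call of an interferon-stimulated gene past the adjusted threshold. Without libraries 1 and 3 of both groups the median log2 fold change was -0.038 (0.38 to 0.72 on leaving out 1 library), 19 members had a higher mean in FICZ (43 to 44), and the difference in mean log2 CPM was -0.115 (0.40 to 0.85). The log2 fold change of Ifitm3 turned its sign in limma-voom (0.00172), with the replicate block (0.00098) and without DMSO library 5 (0.14) or FICZ library 2 (0.013), and leaving out 1 library gave -0.18 to 0.14. The causes were not tested. The other 875 values of single members in the planned settings kept their direction and their side of the threshold. In the added settings, 8 of the 44 members had a log2 fold change below 0 without FICZ libraries 1 and 3, and 25 without libraries 1 and 3 of both groups. Mx1 could not be fitted with a minimum of 1 CPM in 5 libraries. The settings without libraries 1 and 3, and the counts at an unadjusted p and of higher means, were added after the data were seen. Depth limits Mx1, Mx2 and Oas3, with fewest counts.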
